A study of Mus musculus with 6 samples.

Results

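Chemokine and homing receptors are the surface proteins that tell a T cell where to go, and 10 of their genes were followed here: Ccr7, Cxcr3, Cxcr4, Cxcr5, Ccr2, Ccr4, Ccr6, Ccr8, Gpr15 and S1pr1. They were chosen by name, all 10 were found among the 37991 genes of the count table, and all 10 passed the filter on low counts. RNA came from YFP-positive regulatory T cells (Treg) of mouse spleen; Treg express Foxp3 and hold other immune cells in check. The labels describe 3 libraries as KAP1 deficient and 3 as wild type, KAP1 sufficient. Trim28 encodes KAP1, which silences genes and transposons after KRAB zinc finger proteins recruit it to chromatin. The strain field reads C57BL/6 for the sufficient libraries and for deficient replicate 1, C57BL/7 for deficient replicate 2 and C57BL/8 for deficient replicate 3. The age of the mice, the promoter that drives YFP, the way KAP1 was removed, and whether animals were pooled were not stated in the labels. The labels do not tie replicates to different animals either, and the spread behind each p-value may therefore be technical.

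Most of these receptors couple to inhibitory G proteins and turn a gradient of ligand outside the cell into directed movement. Ccr7 and S1pr1 keep T cells circulating through lymphoid organs: CCR7 follows CCL19 and CCL21 into lymph nodes, and S1PR1 follows sphingosine 1-phosphate out of them. The other receptors send cells to particular sites, and Treg that have been activated carry more of them, which lets the cells restrain inflammation in skin, gut or lung.

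Trim28 itself went against the label in 2 libraries. It stood at 23.0, 18.6 and 231 CPM (counts per 1000000 counts of the library) in the libraries labelled deficient replicates 1, 2 and 3, against 244, 244 and 21.2 CPM in those labelled sufficient replicates 1, 2 and 3. Each receptor is therefore compared in 3 ways: as labelled with all 6 libraries; as labelled with replicates 1 and 2 only, without the doubted libraries; and by Trim28 level, with 3 low libraries (deficient 1 and 2, sufficient 3) against 3 high ones (deficient 3, sufficient 1 and 2). The last split rests on measured Trim28 and relabels no library. It shares 4 libraries with the comparison before it, so these are not independent of each other. Log2 fold changes are given ± SE and are deficient over sufficient or low over high Trim28. Libraries held 9954344 to 10994745 counts. Over genes above a minimum mean count, the library labelled deficient replicate 3 stood apart within the high Trim28 libraries. Chi-square per degree of freedom was 7.68 and 8.14 between it and sufficient replicates 1 and 2. Between those 2 it was 2.93, and among the low libraries 2.52 to 3.24. Without deficient replicate 3, the comparison by Trim28 level called the same 4 receptors as with it and Ccr8 too. Log2 fold changes were then -0.84 for Ccr2, -1.02 for Gpr15, -0.37 for Ccr4 and 0.26 for Ccr6.

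Foxp3, which defines Treg, stood at 614, 596 and 612 CPM in deficient replicates 1, 2 and 3, against 747, 697 and 621 CPM in sufficient replicates 1, 2 and 3. In the 4 libraries 4 of 8 Treg and T cell markers were called. Foxp3 (-0.25) and Cd4 (-0.15) fell, and Ikzf2 (0.19), a Treg transcription factor, and Cd3d (0.19), a T cell receptor subunit, rose. By Trim28 level none of the 8 passed. Foxp3 was at -0.16 (adjusted p = 0.193 by edgeR), Cd4 at -0.13, Cd3d at 0.12 and Ikzf2 at 0.024 (adjusted p = 0.914 by edgeR). Ikzf2 was highest in deficient replicate 3, at 1135 CPM. Over all tested genes 17.4% were called in the 4 libraries and 8.23% by Trim28 level. The 8 markers summed to 4672 to 4817 CPM in the low Trim28 libraries and 4827 to 4927 CPM in the high ones. Cd8a of CD8 T cells had 0 to 5 counts, Cd8b1 102 to 148 counts and Ncr1 of NK cells 0. Of the 9 CD8 T and NK cell markers 5 were tested, and 1 rose and 1 fell in the 4 libraries and by Trim28 level. Klrb1c, an NK cell receptor, stood at 10.8, 9.64 and 2.18 CPM in deficient replicates 1, 2 and 3, against 2.77, 2.55 and 8.74 CPM in sufficient replicates 1, 2 and 3, and was higher by Trim28 level at a log2 fold change of 1.97 (adjusted p = 4.08e-06 by edgeR). Nkg7, a granule gene of cytotoxic cells, was lower at -0.58 (adjusted p = 0.00632 by edgeR). The 9 markers summed to 39.9 to 43.7 CPM in the low libraries and 38.7 to 47.8 CPM in the high ones. The 8 stromal and endothelial markers, 4 of them at 0, summed to 0.595 to 0.804 CPM in the low libraries and 1.28 to 1.58 CPM in the high ones, and the 7 erythroid and platelet markers, 4 at 0, to 2.51 to 4.56 CPM in the low libraries and 2.85 to 3.96 CPM in the high ones. The mitochondrial share of counts was 1.33% to 1.41% in the low Trim28 libraries and 1.61% to 2.1% in the high ones, and the part of these shares and markers in any receptor difference was not tested.

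With all 6 libraries as labelled, none of the 10 receptors passed the edgeR test (adjusted p under 0.05 over 12158 genes), none had an unadjusted p under 0.05, and DESeq2 called 0. Across all tested genes 0.0165% passed, or 2 genes. All 10 receptors had overlapping ranges between the labelled groups, where 12.8% of tested genes had none, and log2 fold changes ran from -0.33 ± 0.40 for Gpr15 to 0.13 ± 0.094 for Ccr6. With the doubted libraries left out, 4 of 10 receptors were called, 3 lower and 1 higher, against a background of 17.4% of 12183 genes (9.96% called higher, 7.39% called lower). By Trim28 level 4 of 10 were called, again 3 lower and 1 higher, against a background of 8.23% of 12158 genes (4.61% called higher, 3.61% called lower). Both comparisons called Gpr15, Ccr2 and Ccr4 lower and Ccr6 higher with low Trim28. The median log2 fold change of the 10 receptors was -0.15 in the 4 libraries, against -0.0021 over all tested genes, and -0.13 by Trim28 level, against 0.0021. As labelled with all 6 libraries it was -0.0073, against -0.0037.

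**Figure D1:**
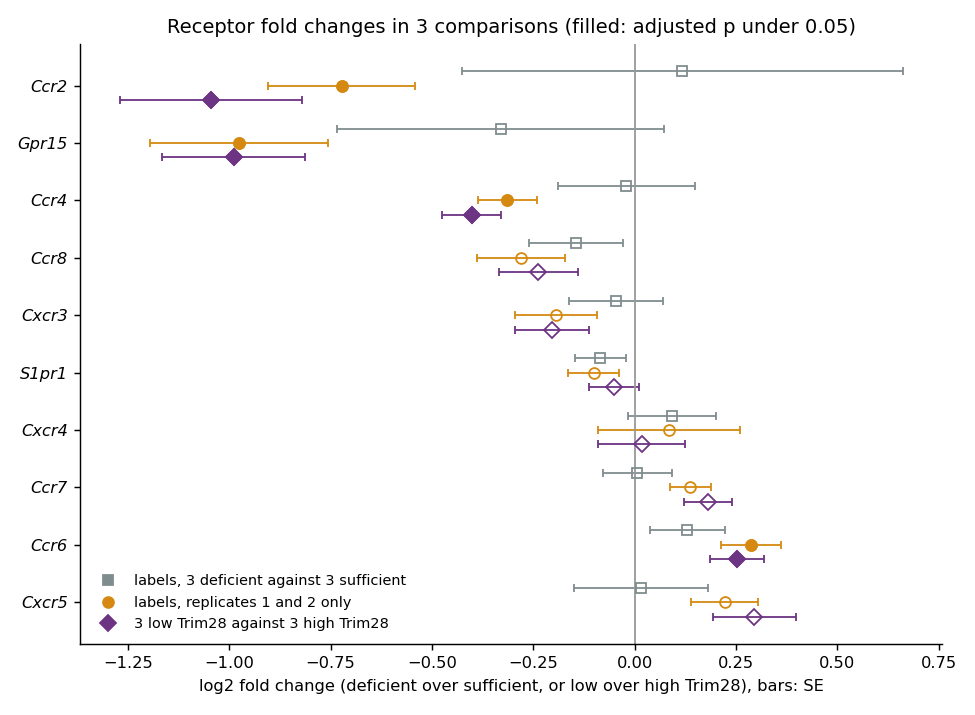
Log2 fold change of each receptor (horizontal axis, deficient over sufficient or low over high Trim28, bars are SE) in the comparison as labelled, in replicates 1 and 2 only, and by Trim28 level. Filled symbols mark an edgeR adjusted p under 0.05. Gpr15, Ccr2, Ccr4 and Ccr6 are filled in the last 2 comparisons, and no receptor is filled in the first.

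Gpr15 (ENSMUSG00000047293; chromosome 16, 58717433 to 58719070, minus strand; these and later gene positions are GENCODE's on GRCm38, which is mm10) guides T cells, Treg among them, to the large intestine. It stood at 4.76, 6.43 and 10.4 CPM in the libraries labelled deficient replicates 1, 2 and 3, against 13.1, 9.04 and 5.05 CPM in sufficient replicates 1, 2 and 3. The library labelled sufficient replicate 3 thus lay with deficient replicates 1 and 2, and deficient replicate 3 lay with the other sufficient libraries. Grouped by Trim28 level, Gpr15 averaged 5.41 ± 0.892 CPM in the low libraries and 10.8 ± 2.05 CPM in the high ones (SD, n = 3 each), with no overlap. The log2 fold change was -0.98 ± 0.22 (adjusted p = 0.00659 by edgeR) in the 4 libraries and -0.99 ± 0.18 (adjusted p = 0.00263 by edgeR) by Trim28 level. Without sufficient replicate 1 the call in the 4 libraries was lost (-0.68, adjusted p = 0.0744 by edgeR), while by Trim28 level it was kept without any single library. Gpr15 was thinly counted, with 48 to 132 counts per library. In bulk RNA, fewer Gpr15-expressing cells and less Gpr15 RNA per cell cannot be told apart, and the same holds for the other receptors. Of its 1638 exon bases, 204 overlap exons of Cpox on the opposite strand, where reads cannot be assigned with certainty because the strand setting is not given; Cpox had log2 fold changes of 0.071 ± 0.084 in the 4 libraries and 0.014 ± 0.078 by Trim28 level.

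Ccr4 (ENSMUSG00000047898; chromosome 9, 114490316 to 114504916, minus strand) encodes the receptor for CCL17 and CCL22 and leads Treg to skin and to dendritic cells. It stood at 48.3, 49.5 and 65.3 CPM in deficient replicates 1, 2 and 3, against 59.4, 62.8 and 43.1 CPM in sufficient replicates 1, 2 and 3. The library of highest Ccr4 was thus one labelled deficient and the library of lowest Ccr4 one labelled sufficient. By Trim28 level it averaged 47.0 ± 3.41 CPM in the low libraries and 62.5 ± 2.97 CPM in the high ones (SD, n = 3 each), which is -0.40 ± 0.073 on the log2 scale (adjusted p = 0.00293 by edgeR). Replicates 1 and 2 alone gave -0.31 ± 0.073 (adjusted p = 0.00788 by edgeR). That call was lost with DESeq2 (-0.32, adjusted p = 0.113) and without sufficient replicate 2 (-0.28, adjusted p = 0.0514 by edgeR).

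Ccr2 (ENSMUSG00000049103) encodes the receptor for CCL2 and draws monocytes and activated T cells to inflamed tissue. It stood at 9.32, 15.3 and 29.7 CPM in deficient replicates 1, 2 and 3, against 19.1, 21.6 and 9.42 CPM in sufficient replicates 1, 2 and 3. By Trim28 level it averaged 11.3 ± 3.41 CPM in the low libraries and 23.5 ± 5.56 CPM in the high ones (SD, n = 3 each), and the ranges did not overlap. The log2 fold change was -0.72 ± 0.18 (adjusted p = 0.0145 by edgeR) in the 4 libraries and -1.05 ± 0.23 (adjusted p = 0.0261 by edgeR) by Trim28 level. The call rested on single libraries: in the 4 libraries it was lost without deficient replicate 1 (-0.41), sufficient replicate 1 (-0.80) or sufficient replicate 2 (-0.64), while without deficient replicate 2 the log2 fold change was -1.12, and by Trim28 level without deficient replicate 1 (-0.92), sufficient replicate 2 (-1.10) or sufficient replicate 3 (-0.93). Ccr2 lies on chromosome 9, 124101950 to 124113557, and its value is uncertain where the authors' counting could split reads between genes of similar sequence. Among the markers of myeloid cells, which also carry CCR2, Lyz2 had 0 to 4 counts per library, Csf1r 1 to 3 and Cd14 0. Cd68, another of these markers, had 26 to 56 counts and was at 0.086 by Trim28 level (adjusted p = 0.899 by edgeR). Ly6c2, found on monocytes and on some T cells, was called higher by Trim28 level (1.55, adjusted p = 0.0128 by edgeR) and in the 4 libraries (1.33), where Cd74, an antigen presentation gene, was called lower (-0.42, adjusted p = 0.00413 by edgeR). The summed level of the 14 myeloid and dendritic markers, 10 of them under 1 CPM on average, was 38.1 to 40.7 CPM in the low Trim28 libraries and 34.8 to 46.5 CPM in the high ones, and the part of these markers in the result was not tested.

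Ccr6 (ENSMUSG00000040899; chromosome 17, 8236043 to 8257141, plus strand), the receptor for CCL20, leads cells to the gut and to inflamed epithelium, and was the only one of the 10 called higher. It stood at 56.3, 53.6 and 46.8 CPM in deficient replicates 1, 2 and 3, against 44.6, 45.9 and 52.5 CPM in sufficient replicates 1, 2 and 3. By Trim28 level it averaged 54.2 ± 1.96 CPM in the low libraries and 45.8 ± 1.10 CPM in the high ones (SD, n = 3 each), with no overlap. The log2 fold change was 0.29 ± 0.075 (adjusted p = 0.0153 by edgeR) in the 4 libraries and 0.25 ± 0.067 (adjusted p = 0.0326 by edgeR) by Trim28 level. That in the 4 libraries was lost with DESeq2 (0.28, adjusted p = 0.215) and without deficient replicate 1 (0.25) or sufficient replicate 1 (0.27). By Trim28 level it was lost with DESeq2 (0.25), upper-quartile factors (0.23) and without any single library other than deficient replicate 3, at log2 fold changes of 0.22 to 0.28. B cells also carry CCR6, CXCR5 and CCR7. The B cell markers Ms4a1 and Pax5 had 0 to 1 counts per library, but Cd79a had 3 to 13 and Cd79b 80 to 125. Cd79b was not called in the 4 libraries (-0.22) or by Trim28 level (-0.32, adjusted p = 0.189 by edgeR). The 9 B cell markers in the table summed to 544 to 581 CPM in the low Trim28 libraries and 606 to 697 CPM in the high ones, mostly from Ighm at 528 to 669 CPM. Of these 9, 4 were tested, and 3 were called lower in the 4 libraries: Ighm (-0.27), Cd22 (-1.18) and Igkc (-2.55, at 4 to 41 counts per library). By Trim28 level Cd22 (-0.88) and Igkc (-2.24) were called lower. The part of these markers in the receptor results was not tested.

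**Figure D2:**
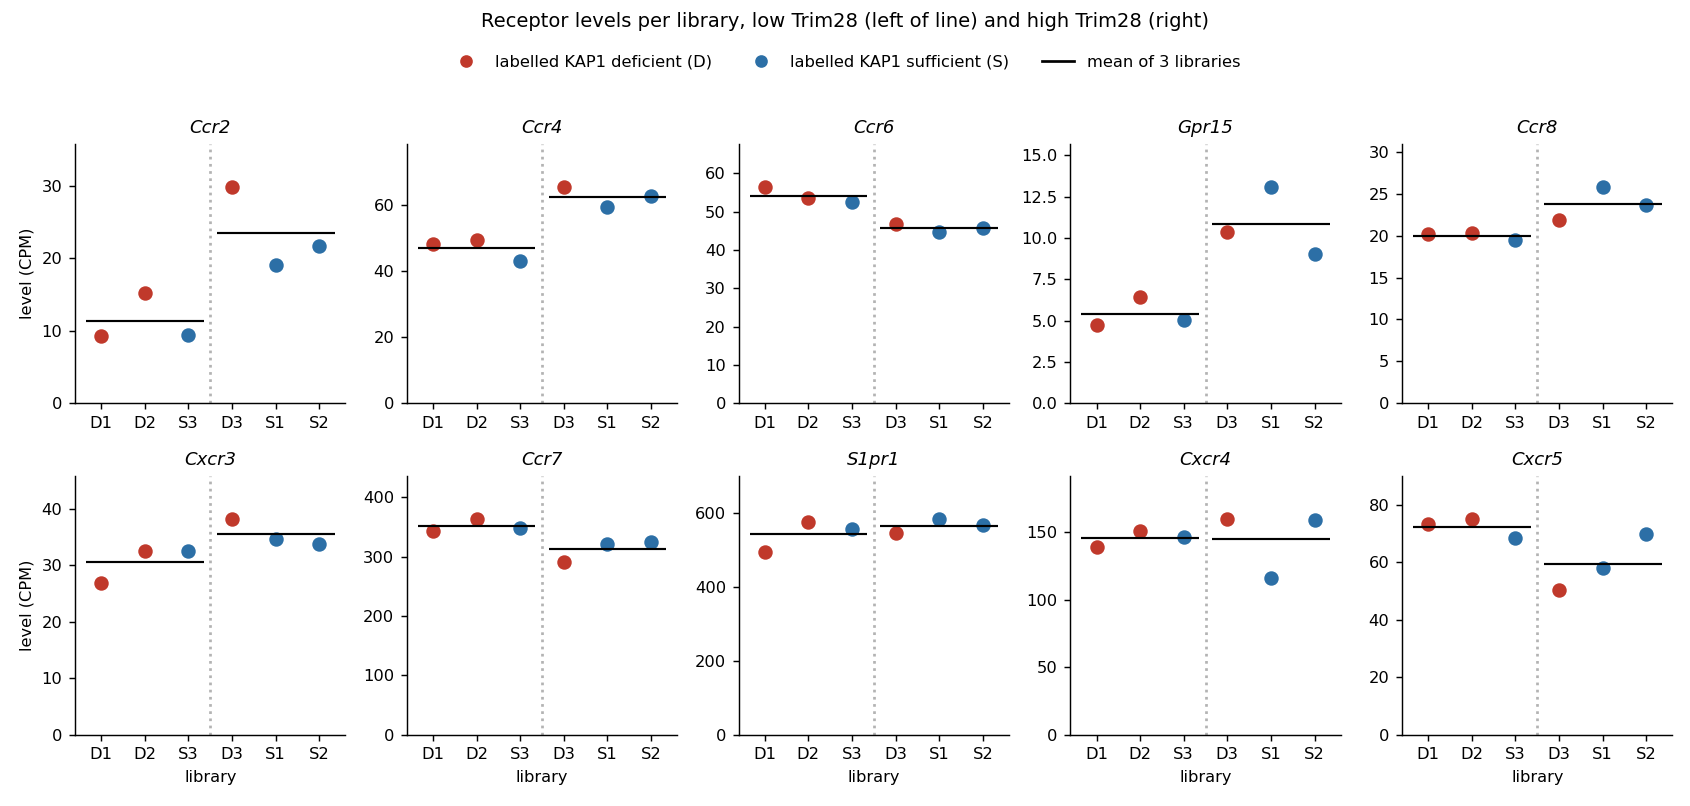
Level of each receptor in CPM (vertical axis, from 0) in the 6 libraries, with the low Trim28 libraries left of the dotted line and the high ones right of it; colour gives the label and black lines are means of 3. Gpr15, Ccr2, Ccr4, Ccr8 and Cxcr3 are lower and Ccr6 and Ccr7 higher in every low library than in any high one.

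RefSeq's promoter table (GRCm38.p6, the assembly of mm10) held 7 of the 10 receptors, with 8 start sites. The windows of the 4 receptors called above are shown because these genes were called by Trim28 level, Ccr6 higher and the others lower. Each runs from 250 bases before RefSeq's start to 50 after it. The first Ccr6 start is the GENCODE gene start given above, and the other starts shown differ from GENCODE's gene positions. The windows of Gpr15 and Ccr2 lie mostly, and those of Ccr4 and the second Ccr6 start wholly, within the GENCODE gene. Bases before those starts are thus not all upstream of the GENCODE gene. They were searched on both strands for 5 motifs. TGANTCA is bound by AP-1, TGTGGT by RUNX factors, CACCC by KLF factors and GTAAACA by FOXO factors, all active in T cells, and the TATA box was searched as TATAAA. Capitals mark every match, on either strand.
Gpr15, chr16:58718823-58719122, minus strand: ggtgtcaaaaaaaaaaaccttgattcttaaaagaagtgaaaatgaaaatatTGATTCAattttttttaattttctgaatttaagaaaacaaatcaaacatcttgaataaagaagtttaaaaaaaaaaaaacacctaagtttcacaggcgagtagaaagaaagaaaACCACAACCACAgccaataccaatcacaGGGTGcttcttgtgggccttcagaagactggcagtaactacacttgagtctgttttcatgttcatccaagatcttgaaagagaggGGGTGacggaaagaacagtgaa
Ccr4, chr9:114496495-114496794, minus strand: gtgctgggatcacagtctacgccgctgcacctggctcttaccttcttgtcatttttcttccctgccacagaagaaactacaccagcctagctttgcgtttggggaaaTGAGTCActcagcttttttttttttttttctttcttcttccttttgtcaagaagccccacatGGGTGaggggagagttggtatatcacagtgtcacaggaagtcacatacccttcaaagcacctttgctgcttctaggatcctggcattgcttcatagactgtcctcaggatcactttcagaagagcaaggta
Ccr2, chr9:124101933-124102232, plus strand: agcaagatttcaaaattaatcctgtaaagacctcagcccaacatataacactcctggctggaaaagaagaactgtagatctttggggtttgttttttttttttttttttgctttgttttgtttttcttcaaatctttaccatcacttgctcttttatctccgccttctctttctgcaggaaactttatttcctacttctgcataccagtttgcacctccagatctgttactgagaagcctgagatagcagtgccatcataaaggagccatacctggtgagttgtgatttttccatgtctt
Ccr6 first start, chr17:8235793-8236092, plus strand: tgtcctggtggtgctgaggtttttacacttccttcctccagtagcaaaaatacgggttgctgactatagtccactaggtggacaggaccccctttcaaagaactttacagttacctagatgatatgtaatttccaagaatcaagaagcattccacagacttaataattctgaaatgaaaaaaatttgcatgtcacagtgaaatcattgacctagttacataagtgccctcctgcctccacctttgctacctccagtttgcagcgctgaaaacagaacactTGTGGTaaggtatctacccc
Ccr6 second start, chr17:8242276-8242575, plus strand: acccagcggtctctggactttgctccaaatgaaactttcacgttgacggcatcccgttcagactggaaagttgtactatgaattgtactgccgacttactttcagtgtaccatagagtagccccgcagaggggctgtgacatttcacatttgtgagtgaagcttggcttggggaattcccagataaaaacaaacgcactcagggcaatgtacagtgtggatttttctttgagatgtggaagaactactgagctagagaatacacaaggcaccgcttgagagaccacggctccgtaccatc
The Gpr15 window held 1 AP-1 match (bases 52 to 58), 2 RUNX matches side by side (bases 166 to 171 and 172 to 177) and 2 KLF matches. The Ccr4 window held 1 AP-1 match (bases 108 to 114) and 1 KLF match. Ccr2 had none of the 5 in its window, and Ccr6 had 1 RUNX match at its first start (bases 281 to 286) and none at its second. None of the matches shown overlaps another. Of all 32851 promoters of the same length, 7.81% held an AP-1 match, 16.8% a RUNX match, 57.5% a KLF match, 3.65% a FOXO match and 13.6% a TATA match. GC content was 33.7% for Gpr15, 38.0% for Ccr2, 46.3% for Ccr4, and 42.3% and 47.7% for the starts of Ccr6. These matches are descriptions of letters and say nothing of binding.

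Ccr8 and Cxcr3, the other receptors of activated cells, were lower in every low Trim28 library than in any high one but did not pass. CCR8 binds CCL1 and marks Treg of skin and tumours. Ccr8 stood at 20.2, 20.3 and 21.8 CPM in deficient replicates 1, 2 and 3, against 25.7, 23.7 and 19.4 CPM in sufficient replicates 1, 2 and 3. Its log2 fold change was -0.28 ± 0.11 (adjusted p = 0.0933 by edgeR) in the 4 libraries and -0.24 ± 0.097 (adjusted p = 0.158 by edgeR) by Trim28 level, where it passed without deficient replicate 3 (-0.30, adjusted p = 0.0317 by edgeR). CXCR3 follows CXCL9 and CXCL10 to sites of type 1 inflammation. Cxcr3 stood at 26.9, 32.5 and 38.2 CPM in deficient replicates 1, 2 and 3, against 34.5, 33.7 and 32.4 CPM in sufficient replicates 1, 2 and 3. Its log2 fold change was -0.19 ± 0.10 (adjusted p = 0.212 by edgeR) in the 4 libraries and -0.20 ± 0.091 (adjusted p = 0.203 by edgeR) by Trim28 level.

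None of the receptors of lymphoid recirculation and niches passed in any of the 3 comparisons. Ccr7 stood at 344, 364 and 291 CPM in deficient replicates 1, 2 and 3, against 321, 325 and 348 CPM in sufficient replicates 1, 2 and 3. Every low Trim28 library was thus above every high one, with log2 fold changes of 0.14 ± 0.051 (adjusted p = 0.0812 by edgeR) in the 4 libraries and 0.18 ± 0.059 (adjusted p = 0.0768 by edgeR) by Trim28 level. Ccr7 passed by Trim28 level when no filter on low counts was used (0.18, adjusted p = 0.0377 by edgeR). S1pr1 stood at 495, 574 and 544 CPM in deficient replicates 1, 2 and 3, against 584, 567 and 557 CPM in sufficient replicates 1, 2 and 3, with overlapping groups in all 3 comparisons. Its log2 fold change was -0.10 ± 0.063 (adjusted p = 0.307 by edgeR) in the 4 libraries, where it passed without deficient replicate 2 (-0.21), and -0.050 ± 0.062 (adjusted p = 0.684 by edgeR) by Trim28 level.

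Cxcr5, which brings cells to B cell follicles along CXCL13, stood at 73.3, 75.0 and 50.2 CPM in deficient replicates 1, 2 and 3, against 57.9, 69.8 and 68.3 CPM in sufficient replicates 1, 2 and 3. Its log2 fold change was 0.22 ± 0.084 (adjusted p = 0.0847 by edgeR) in the 4 libraries and 0.30 ± 0.10 (adjusted p = 0.109 by edgeR) by Trim28 level. Sufficient replicate 2 lay above sufficient replicate 3, so the groups by Trim28 level overlapped, and without sufficient replicate 2 Cxcr5 passed in both (0.36 and 0.43). It also passed in both when no filter on low counts was used (0.22, adjusted p = 0.0285, and 0.29, adjusted p = 0.00125, by edgeR). Of its 3332 exon bases 110 overlap Bcl9l on the opposite strand. Cxcr4, the CXCL12 receptor that holds cells in bone marrow, stood at 139, 151 and 159.7 CPM in deficient replicates 1, 2 and 3, against 116, 159 and 146 CPM in sufficient replicates 1, 2 and 3. Its groups overlapped in all 3 comparisons, and its log2 fold change of 0.084 ± 0.18 (adjusted p = 0.811 by edgeR) in the 4 libraries became 0.32, and passed, without sufficient replicate 2 and -0.12 without sufficient replicate 1. By Trim28 level the log2 fold change of Cxcr4 was 0.017 ± 0.11 (adjusted p = 0.952 by edgeR), with the other sign under upper-quartile factors (-0.0087).

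By Trim28 level 7 of the 10 receptors had ranges that did not overlap, 2 higher and 5 lower, where 26.4% of tested genes had none (11.9% higher, 14.5% lower). In the 4 libraries 8 of 10 did not overlap, 3 higher and 5 lower, where 58.0% of tested genes had none (28.6% higher, 29.4% lower).

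Levels between receptors were set side by side as CPM per kilobase of exon, over the 6 libraries. S1pr1 was highest at 182 ± 10.4, followed by Ccr7 at 168 ± 12.8 and Cxcr4 at 80.3 ± 9.0 (SD, n = 6). The ranges of S1pr1 and Ccr7 overlapped, while Ccr7 lay above Cxcr4 and Cxcr4 above all others in every library. Ccr6, Cxcr5, Cxcr3, Ccr8 and Ccr4 stood together, with means of 17.7 to 21.5 and each overlapping the next. Gpr15 at 4.96 ± 2.0 and Ccr2 at 2.58 ± 1.16 were lowest and overlapped each other. Exon length was the union of all annotated exons, 1638 bases for Gpr15 and 6760 for Ccr2. Without division by length their order was the reverse, with means of 8.12 CPM for Gpr15 and 17.4 CPM for Ccr2. The 10 receptors together made up 1217 to 1341 CPM per library, and S1pr1 alone 40.7% to 45.8% of their counts. Gpr15 and Ccr2, the least abundant per length, were also the receptors with the largest log2 fold changes by Trim28 level.

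**Figure D3:**
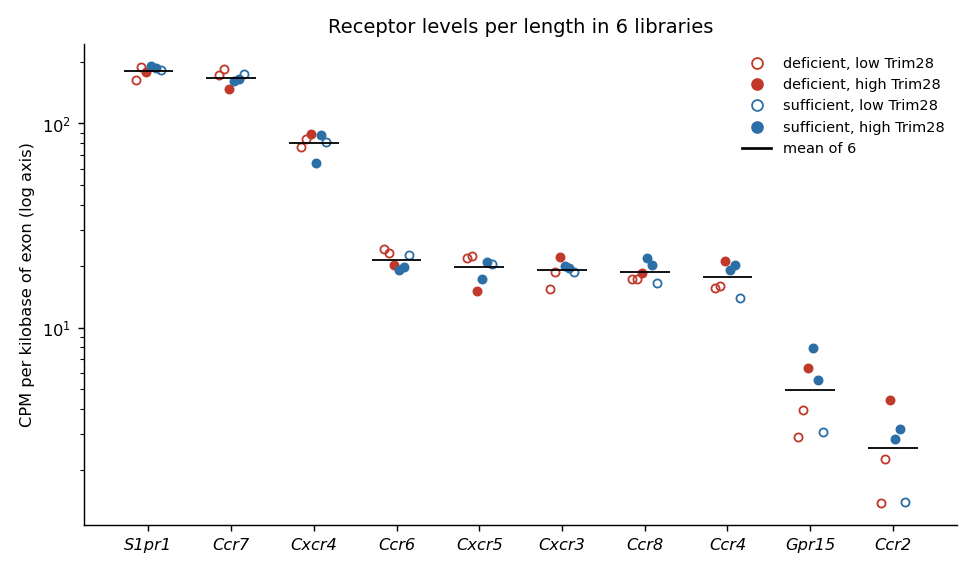
CPM per kilobase of exon (log axis) of the 10 receptors, ordered by their mean over 6 libraries (black lines). Open points are low Trim28 libraries, filled points high ones, and colour gives the label. S1pr1 and Ccr7 overlap at the top, and for Gpr15 and Ccr2 every open point lies below every filled one.

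The authors' deposited table, in which positive values mean higher in sufficient cells, called 3 of the 10 receptors at an adjusted p under 0.05, where it called 6.87% of the genes with an adjusted p. In the authors' deposited table the log2 fold changes of these were 0.64 for Ccr2 (adjusted p = 2.61e-05), 0.35 for Ccr4 (adjusted p = 0.00123) and 0.58 for Gpr15 (adjusted p = 0.000239). The authors' deposited table gave -0.23 for Ccr6 (adjusted p = 0.0779) and -0.17 for Ccr7 (adjusted p = 0.0592), which did not pass. The authors' deposited table lists Trim28 at 3.11 ± 0.078 (SE). With all 6 libraries as labelled, Trim28 was at -0.90 ± 1.46 here, deficient over sufficient (adjusted p = 0.889 by edgeR). The deposited calls therefore cannot be read as calls of the labelled comparison above, in which no receptor passed. Values of the deposited table come from the same study's libraries and are no independent support.

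Most of the other chemokine receptors were too low to test at this depth. Of 15 such genes 4 had no count in any library, and 3 counts, the limit that a count of 0 allows, are 0.273 to 0.301 CPM here. Only 4 passed the filter (median log2 fold change -0.84 in the 4 libraries), and 2 of these fell in both the 4 libraries and by Trim28 level. Of these, Cxcr6, the CXCL16 receptor, stood at 2.68, 3.72 and 6.28 CPM in deficient replicates 1, 2 and 3, against 9.997, 4.71 and 2.72 CPM in sufficient replicates 1, 2 and 3. The log2 change in the 4 libraries was -1.19 ± 0.35 (adjusted p = 0.0415 by edgeR), a call lost with DESeq2 (-1.20) and without sufficient replicate 1 (-0.55). It was lower in every low Trim28 library than in any high one. Cxcr6 lies on chromosome 9, as do Ccr2, Ccr4, Ccr8 and Cxcr5. Of 32 chemokine ligand genes 17 had no count and 4 were tested (median 0.050), and 1 fell: Cxcl10, a CXCR3 ligand, at -1.01 ± 0.30 (adjusted p = 0.0316 by edgeR). That call was lost with DESeq2 (-1.02) and without deficient replicate 1 (-0.78), sufficient replicate 1 (-0.88) or sufficient replicate 2 (-1.14).

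Of the adhesion genes that work with homing receptors, 17 of 18 were tested, with a median log2 fold change of -0.026 in the 4 libraries. There 4 fell and 1 rose (3 and 1 by Trim28 level). Over all tested genes 7.39% fell and 9.96% rose in the 4 libraries, and 3.61% fell and 4.61% rose by Trim28 level. These shares apply to each list here. Itgb1 and Itga4 encode the integrin beta 1 and alpha 4 chains, which pair to hold cells to inflamed vessel walls. In the 4 libraries they had log2 fold changes of -0.46 ± 0.058 (adjusted p = 7.56e-05 by edgeR) and -0.23 ± 0.053 (adjusted p = 0.00694 by edgeR). Chst2, an enzyme that sulfates selectin ligands, fell (-0.53 ± 0.13), and Icam1, a ligand of the integrin LFA-1, rose (0.21 ± 0.067). Chst2 lost its call with DESeq2 and without sufficient replicate 2 (-0.37), and Icam1 with DESeq2, upper-quartile factors and without any single one of the 4 libraries (0.17 to 0.25). Of 24 transcription factors tied to homing programs 8 fell and none rose in the 4 libraries, against the shares of all tested genes above. By Trim28 level 9 fell and none rose. The median log2 fold change of the list was -0.17 in the 4 libraries. Maf, a factor of effector and gut Treg, had a log2 fold change of -0.60 ± 0.060 (adjusted p = 6.1e-06 by edgeR). Klf3 (-0.47 ± 0.052) and Id3 (-0.63 ± 0.072) also fell. By Trim28 level Klf3 was at -0.36 ± 0.097 (adjusted p = 0.0468 by edgeR). That call was lost without any single library other than deficient replicate 3 (-0.37 to -0.29).

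Sphingosine 1-phosphate genes other than S1pr1 were called once among 8 tested of 14 (median log2 fold change -0.052 in the 4 libraries). Sgpp1, a phosphatase of this lipid, rose there with a log2 change of 0.48 ± 0.060 (adjusted p = 6.19e-05 by edgeR). Its call by Trim28 level (0.37) was lost without deficient replicate 2 or any single sufficient library (0.31 to 0.37). Of 44 genes for G proteins, their regulators and motility, 41 were tested, and 9 rose and 2 fell in the 4 libraries, with a median of -0.024, but only 1 rose and 2 fell by Trim28 level. Among the regulators that end G protein signals, Rgs1 rose (0.30 ± 0.062) and Rgs16 (-0.47 ± 0.095) and Rgs10 (-0.25 ± 0.051) fell in the 4 libraries. By Trim28 level Rgs10 did not pass (-0.22, adjusted p = 0.0584 by edgeR). Rgs1 (0.25) lost its call there without any single library other than deficient replicate 3 (0.18 to 0.28). Rgs16 lost it without deficient replicate 1 or 2, and with DESeq2 in the 4 libraries. Rap1a, a switch for integrin adhesion, rose in the 4 libraries (0.40 ± 0.074). By Trim28 level it was at 0.17 ± 0.14 (adjusted p = 0.532 by edgeR) and passed without deficient replicate 3 (0.36). With all 6 libraries as labelled, 0 of the 98 tested genes of these 6 lists passed edgeR or DESeq2, and 7 had an unadjusted edgeR p under 0.05. In the 4 libraries 28 of the 98 passed, and by Trim28 level 20 (11 to 40 without single libraries, highest without deficient replicate 3), against the 17.4% and 8.23% of all tested genes given above.

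**Figure D4:**
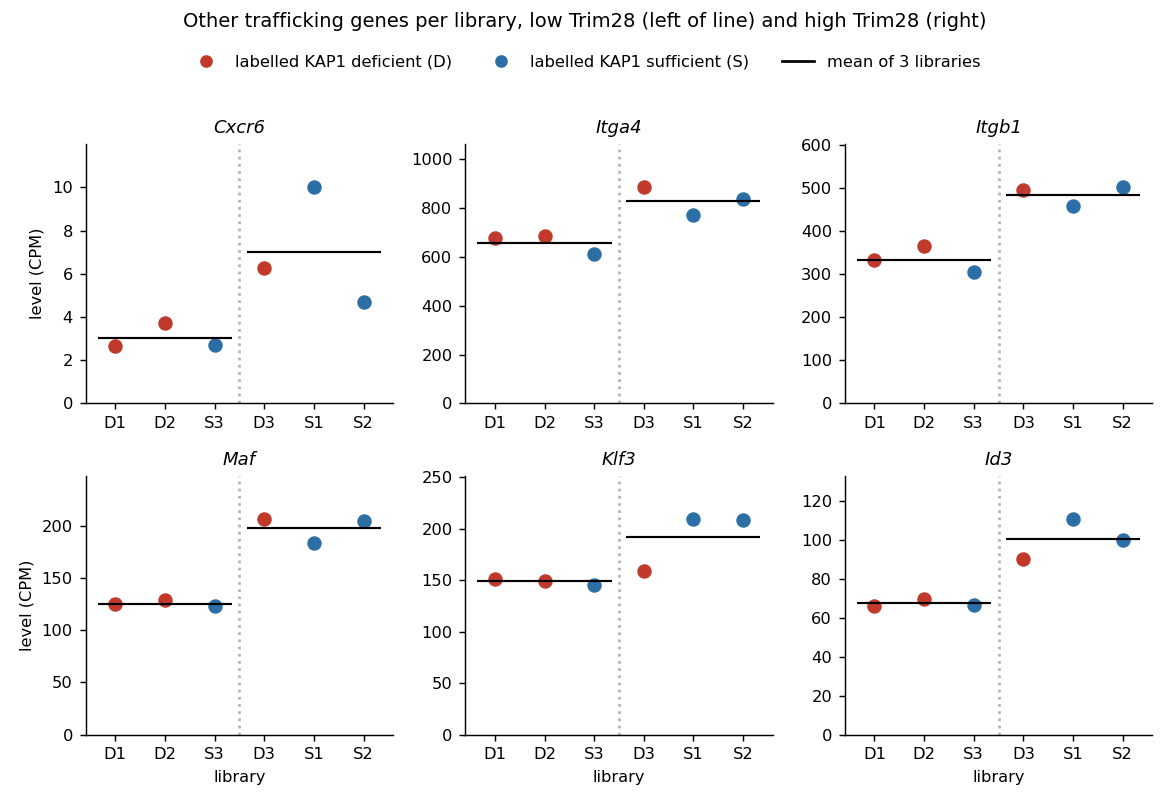
Level in CPM (vertical axis, from 0) of 6 other trafficking genes in the 6 libraries, drawn as for the receptors, with low Trim28 libraries left of the dotted line. All 6 are lower in every low Trim28 library than in any high one, and Klf3 in deficient replicate 3 lies nearest to the low libraries.

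The genes whose pattern over the 6 libraries was most like each called receptor were found by the root mean square difference of log2 CPM centred per gene. For Ccr4 these were Myo1e, an unconventional myosin (0.0365), and the integrin gene Itga4 (0.0425). For Gpr15 they were Ctnnd1, which encodes p120 catenin (0.102), and Il17rb, a subunit of the interleukin-25 receptor (0.143). For Ccr2 they were the T cell receptor segment Trbv30 (0.200) and Zfp839 (0.218), both more distant than the genes found for the other receptors. For Ccr6 they were Cndp2, a dipeptidase gene (0.0217), and Poli, a DNA polymerase gene (0.0232).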

How the data were processed

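Libraries of splenic YFP-positive Treg were made with a TruSeq kit, per the labels' protocols. TopHat2 2.1.1, HTSeq 0.7.2, DESeq2 and mm10 are named in the submitters' processing notes with no role or order; the annotation release and the strand setting were not named in any of the sources used. The table deposited by the authors holds raw counts per Ensembl gene. The authors' deposited comparison holds, per the file headers, mean levels (signal), log2 fold changes and their standard errors, the test statistic (a score), p-values and q-values. Groups came from sample titles. Members, lists and comparisons were chosen with earlier results of these data known.

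Names came from a reference table, positions and exon lengths from GENCODE M21. The count test was edgeR 4.0.16 (R 4.3.3): TMM factors, filterByExpr, the robust quasi-likelihood test, and Benjamini-Hochberg adjustment over all tested genes at 0.05. SEs were derived from the fold change and F value. CPM used library totals without TMM factors. Fits were tested on simulated data. Alternatives were RLE and upper-quartile factors, other filters, DESeq2 1.42.0, a non-robust fit, a replicate block and leaving out each library. Besides the receptors, 6 lists of 147 entries and 6 marker lists of 56 were used, naming up to 4 genes per list called in the 4 libraries, and 2 alike genes per called receptor; some of these are not reported here. Cpox and Bcl9l were added for their overlaps. Likeness used log2(CPM + 0.1) for genes with a mean of at least 1. Over genes above a minimum mean count, no 2 libraries agreed within sampling noise (lowest chi-square over its degrees of freedom, 2.52). The floor of 3 counts covers counting error only.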

Additional observations from a re-analysis of the deposited data

How the results depend on the processing

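As labelled with all 6 libraries, 0 receptors were called by edgeR under every alternative run, the replicate block included (0), and without any single library. In the 4 libraries the 4 called receptors became 2 with DESeq2's Wald test (Ccr2 and Gpr15) and 1 (without sufficient replicate 1) to 5 (without deficient replicate 2) when single libraries were left out, where the lone library is assumed to vary like the other group; the replicate block called 5, adding Ccr7 (0.14). By Trim28 level, leaving out single libraries gave 2 (without deficient replicate 1 or sufficient replicate 3) to 5 (without deficient replicate 3). The cause was not tested. Over the 3 comparisons, 308 of 360 values of single receptors kept their direction and call, 19 lost a call, 9 gained one and 24 changed sign, none of these 24 called. Of these 360 values, 130 belong to the comparison as labelled, where no receptor was called and none could lose a call. By Trim28 level 10 of 120 lost it, all of them values of the 4 receptors called there. As labelled, upper-quartile factors gave -0.0096 for Ccr7 and -0.00054 for Cxcr5, and the replicate block -0.0010 for Cxcr5. By Trim28 level, upper-quartile factors gave -0.0087 for Cxcr4. Where leaving out a library changed a sign, log2 fold changes as labelled ran from -0.059 to 0.10 for Ccr7, -0.17 to 0.069 for Cxcr3, -0.027 to 0.19 for Cxcr4, -0.080 to 0.19 for Cxcr5, -0.44 to 0.42 for Ccr2, -0.17 to 0.080 for Ccr4 and -0.69 to 0.033 for Gpr15. They ran from -0.12 to 0.32 for Cxcr4 in the 4 libraries, and by Trim28 level from -0.11 to 0.088 for Cxcr4 and -0.089 to 0.0097 for S1pr1.

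The same alternatives were applied to the other lists after seeing the data. Of the 98 genes, 0 to 7 were called as labelled without single libraries, 7 without sufficient replicate 3; in the 4 libraries 13 with DESeq2 and 21 to 27 without single libraries; and by Trim28 level 11 to 40. Of 176 values of 16 of these genes in the 4 libraries 15 lost the call and 0 changed sign, and of 192 by Trim28 level 28 lost it, 4 gained one and 0 changed sign.

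Over all genes, the 2 calls as labelled became 6 with DESeq2, 3 with no filter on low counts, 0 with the replicate block by edgeR (705 genes at an unadjusted p under 0.05), and 1 to 807 without single libraries, highest without sufficient replicate 3. The 2114 calls in the 4 libraries became 935 with DESeq2, and upper-quartile factors gave 1046 higher and 1248 lower in place of 1214 and 900. The 1000 calls by Trim28 level became 1676 with no filter and 556 to 2737 without single libraries, highest without deficient replicate 3. Deviations from group means in libraries of the same number had correlations of -0.356, -0.278 and -0.594 over all 6 libraries. Each labelled group there holds 1 library whose Trim28 goes against its label, so these values cannot speak to pairing. In the 4 libraries the correlation was -0.0031, which gave no sign of a pairing by the labels' numbers. Depth limits statements on genes below 0.273 to 0.301 CPM.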

Other observations

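Among the 3 libraries of high Trim28, the one labelled deficient replicate 3 stood at one end of the range for several receptors. It was the highest of all 6 libraries for Ccr2 (29.7 CPM), Ccr4 (65.3 CPM) and Cxcr3 (38.2 CPM). It was also highest for Cxcr4 (159.7 CPM), though sufficient replicate 2 was close at 158.8 CPM. It was the lowest of all 6 for Ccr7 (291 CPM) and Cxcr5 (50.2 CPM). The library labelled sufficient replicate 1 was the highest of all 6 for Gpr15 (13.1 CPM), Ccr8 (25.7 CPM) and S1pr1 (584 CPM). How many of all tested genes had their extremes in these libraries was not counted, so these extremes cannot be called particular to the receptors. Deficient replicate 3 also stood apart over all genes above a minimum mean count. Its chi-square per degree of freedom was 7.68 and 8.14 to sufficient replicates 1 and 2, against 2.93 between those 2.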
